A study of Mus musculus with 5 samples.

Results

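The genes described here encode the building blocks of the cornified envelope, the cross-linked protein shell of terminally differentiated squamous cells, as measured in prostate tumors of TripleTg mice that were either castrated or left intact. They were chosen by symbol from the deposited count table, and all 10 members (Ivl, Tgm1, Tgm3, Sbsn, Krtdap, Cnfn, Sprr1a, Sprr3, Evpl and Ppl) were found among 24527 genes. Bulk RNA sequencing was available for 3 castrated and 2 intact samples. All 5 samples shared 1 genotype with the hHGFtg, H11 hMET/+ and Ctnnb1 L(Ex3)/+ alleles together with PB Cre4, in which a human HGF transgene is expressed in all tissues, while a human MET transgene and a stabilized β-catenin are switched on in prostate epithelium by Cre driven from the probasin promoter. Castration was carried out at 4 months, and tumors of castrated mice and of age-matched intact mice were taken at 8 months of age. Since every sample carried the stabilized β-catenin allele, the comparison is between castrated and intact tumors, and no tissue without that allele was analysed here.

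Squamous differentiation runs from basal keratinocytes, marked by the transcription factor p63 (Trp63) and keratins 5 and 14, through a suprabasal stage to dead cornified cells. In the last step, transglutaminases tie precursor proteins such as involucrin and the small proline-rich proteins to one another and to the plakins beneath the cell membrane. Normal prostate glands are not cornified. In mouse prostate epithelium, stabilized β-catenin is known to give rise to squamous lesions, and the question addressed was whether the squamous genes differed between castrated and intact tumors.

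Sprr3, Sprr1a and Ivl lie close together on chromosome 3 (mm10), inside the epidermal differentiation complex, a cluster of genes for the cornified layer. Sprr3 runs from 92456502 to 92458720, Sprr1a from 92483954 to 92485881 and Ivl from 92570900 to 92573735. Promoter windows from 250 bases before to 50 bases after the gene start were matched for 8 members (RefSeq, GRCm38.p6). They were searched for TGANTCA, the binding motif of AP-1 (the JUN and FOS factors), which reads the same on both strands. The motif occurred in 4 of these 8 members, against 8.97% of 27025 genes with a promoter window. The matches are shown because they fall in members of different behavior across samples, with the motif in capitals.

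Sprr1a, chr3:92486010-92486038, minus strand: ataactaaagcTGAGTCAgagggtgaact
Sprr1a, chr3:92485980-92486008, minus strand: ggggaggagggTGAGTCAtaggtgactgg
Ivl, chr3:92573834-92573862, minus strand: aagttatcagaTGACTCAgaaaggaagga
Sbsn, chr7:30751341-30751369, plus strand: gatcttgtccaTGAATCAtcctgtcttcc
Sbsn, chr7:30751454-30751482, plus strand: acaggagggatTGAGTCAtgaggggtggg
Krtdap, chr7:30787813-30787841, plus strand: tgatccggggaTGAGTCActagggtggga

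A match is a string of letters, and no binding was measured in these samples. Of the 4 members, Krtdap was nearly absent from 4 of the 5 samples, whereas Sprr1a was present in each of them.

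The libraries of castrated replicates 1, 2 and 3 held 28015507, 18951782 and 20492061 counts, and those of the 2 intact samples 21560355 and 22853501. Levels are given as CPM, the counts scaled to these totals. The labels give every sample its own identifier but do not state how the animals relate, so p-values measure the spread between these samples. General epithelial genes were abundant in each sample. Krt8, a keratin of simple epithelium, was at 895, 764 and 1146 CPM in castrated and at 1195 and 623 CPM in intact samples. Epcam, an epithelial adhesion molecule, was at 753, 718 and 638 CPM in castrated and at 1371 and 481 CPM in intact samples. Prostate secretory markers, by contrast, were close to absent in all samples except intact replicate 2. The transglutaminase Tgm4 had 28976 counts there, or 1268 CPM, and at most 0.428 CPM in the other samples. Pbsn, which encodes probasin, was at 4.90 CPM in intact replicate 2 and at 0.464 and 0.244 CPM in castrated replicates 1 and 3. It had 0 counts in castrated replicate 2 and intact replicate 1. In these secretory markers intact replicate 2 therefore stands apart from the other samples, and the fold changes of the tested members are also given without it. Over all genes tested, 25.3% had their highest CPM in intact replicate 2 and 25.0% in intact replicate 1. By that count intact replicate 2 did not stand apart from intact replicate 1. Fold changes without intact replicate 1 are drawn in the plot of fits with each sample left out.

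For none of the cornified envelope genes did the test find a difference between castrated and intact samples beyond the spread between samples. The test was run on genes that exceeded 1 CPM in 2 or more samples, which 7 of the 10 members did, while Krtdap, Cnfn and Sprr3 did not. Of the 10 members, 0 were called by the quasi-likelihood F-test of edgeR (Benjamini-Hochberg adjusted p below 0.05 with more than a 1 log2 unit change), as were 0 of 14612 genes tested, or 0%. At an unadjusted p under 0.05 with the same fold change, 0 members passed, against 1596 genes or 10.9% of those tested. DESeq2 and edgeR's likelihood ratio test also called 0 members, beside 989 and 369 of the 14612 genes tested. In 10 of 10 members the castrated and intact samples overlapped, whereas 33.1% of tested genes had groups that did not overlap (17.8% castrated higher and 15.3% castrated lower). Of the 7 tested members, 2 had a higher and 5 a lower fitted level in castrated samples, with a median log2 fold change of -0.47, against -0.03 over all genes tested. Without intact replicate 2, this median was 0.70, and without intact replicate 1 it was -0.95. In bulk tissue, fewer squamous cells and less RNA per squamous cell cannot be told apart.

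The cross-linking enzymes varied among samples of the same group. Tgm1, which encodes the membrane-bound transglutaminase of keratinocytes (chromosome 14, 55700009 to 55713492), was at 5.28, 3.75 and 16.3 CPM in castrated and at 1.58 and 8.01 CPM in intact samples. Castrated replicate 3 was highest and intact replicate 1 lowest, with the remaining samples between them. The log2 fold change of castrated against intact samples was 0.74 (standard error, SE, 0.97, edgeR adjusted p = 0.744), and 2.41 without intact replicate 2. Tgm3, the transglutaminase that acts in hair follicle and late epidermis (chromosome 2, 130012340 to 130050399), was at 3.28, 25.6 and 48.2 CPM in castrated and at 0.278 and 50.8 CPM in intact samples. The intact samples thus held both the lowest and the highest value, 183-fold apart, with 6 counts in intact replicate 1 and 1162 in intact replicate 2. Group means were 25.7 ± 22.4 CPM (SD, n = 3) and 25.6 ± 35.8 CPM (SD, n = 2), and the log2 fold change was -0.07 (SE 1.80, edgeR adjusted p = 0.987). Tgm3 moved to a log2 fold change of 6.51 (SE 2.10, edgeR adjusted p = 0.342) once intact replicate 2 was left out. Tgm1 and Tgm3 overlap an antisense transcript and a microRNA gene, respectively, on the opposite strand, and whether reads were counted by strand is not given in the sources used here.

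The envelope precursors split into a pair of expressed genes and a pair that were hardly detected. Ivl, which encodes involucrin, an early scaffold of the envelope, was at 24.8, 1.69 and 2.0 CPM in castrated and at 18.8 and 37.0 CPM in intact samples. Castrated replicates 2 and 3 lay far below the other samples, but castrated replicate 1 fell between the intact samples. The log2 fold change was -1.62 (SE 1.23, edgeR adjusted p = 0.568), and -1.0 without intact replicate 2. Leaving out castrated replicate 1 gave -3.94, with an edgeR adjusted p of 0.185. Sprr1a, a small proline-rich protein that also rises in stressed epithelia, was at 56.1, 25.3 and 23.9 CPM in castrated and at 32.7 and 60.8 CPM in intact samples. Its order over the samples was close to that of Ivl, with castrated replicate 1 and intact replicate 2 on top, but its range was 2.55-fold against 21.9-fold for Ivl. The log2 fold change of Sprr1a was -0.47 (SE 0.50, edgeR adjusted p = 0.692), and 0.098 without intact replicate 2.

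Cnfn, which encodes cornifelin (chromosome 7, 25367616 to 25369724), had 127 counts or 5.56 CPM in intact replicate 2 and 1 count in intact replicate 1. Castrated replicates 1, 2 and 3 had 3, 0 and 0 counts of Cnfn, where a count of 0 allows up to 0.158 CPM in castrated replicate 2 and 0.146 CPM in castrated replicate 3. Such limits take 3 counts of the total and cover counting error only. Sprr3, a small proline-rich gene of oral and esophageal epithelium, had 6 counts in intact replicate 2, 2 counts in castrated replicate 1 and 0 counts in the other samples. Sprr3 was therefore not detectable above a few reads in any sample, and Cnfn in 1 of 5 samples.

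The plakins, which anchor the envelope to desmosomes and keratin filaments and are also made by simple epithelia, were found in every sample. Ppl, or periplakin (chromosome 16, 5086291 to 5132481), was at 70.2, 76.4 and 109 CPM in castrated and at 104 and 157 CPM in intact samples. Only castrated replicate 3 reached the range of the intact samples, and the 2.23-fold span over all samples was the narrowest of the members found in each of them. Ppl had a mean of 85.2 ± 20.8 CPM (SD, n = 3) in castrated and 130.4 ± 36.9 CPM (SD, n = 2) in intact samples, with a log2 fold change of -0.65 (SE 0.31, edgeR adjusted p = 0.386). That adjusted p was the smallest of the 7 tested members. Evpl, or envoplakin (chromosome 11, 116220559 to 116238091), the partner of periplakin, was at 22.8, 30.7 and 44.9 CPM in castrated and at 14.0 and 25.6 CPM in intact samples. Its log2 fold change of 0.68 (SE 0.45, edgeR adjusted p = 0.508) had the sign opposite to that of Ppl, and neither gene passed the test. Without intact replicate 2 the values were 1.23 for Evpl and -0.29 for Ppl.

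The genes of the secreted suprabasal proteins lie near each other on chromosome 7. Sbsn, or suprabasin (30751471 to 30756134), was at 6.03, 7.76 and 12.7 CPM in castrated and at 5.47 and 43.6 CPM in intact samples. Intact replicate 1 was the lowest of all samples, and intact replicate 2 was 3.43-fold above the next. The log2 fold change of Sbsn was -1.55 (SE 0.88, edgeR adjusted p = 0.448), and it was 0.70 without intact replicate 2. Sbsn shares its strand and part of its span with the noncoding transcript Tmem147os, so some of its reads are uncertain. Krtdap, the keratinocyte differentiation-associated protein (30787905 to 30791089), had 159 counts or 6.96 CPM in intact replicate 2 and 0 counts in intact replicate 1. Castrated replicates 1, 2 and 3 had 19, 2 and 7 counts of Krtdap, or 0.678, 0.106 and 0.342 CPM. Krtdap was thus 10.3-fold higher in intact replicate 2 than in the next sample.

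**Figure D1:**
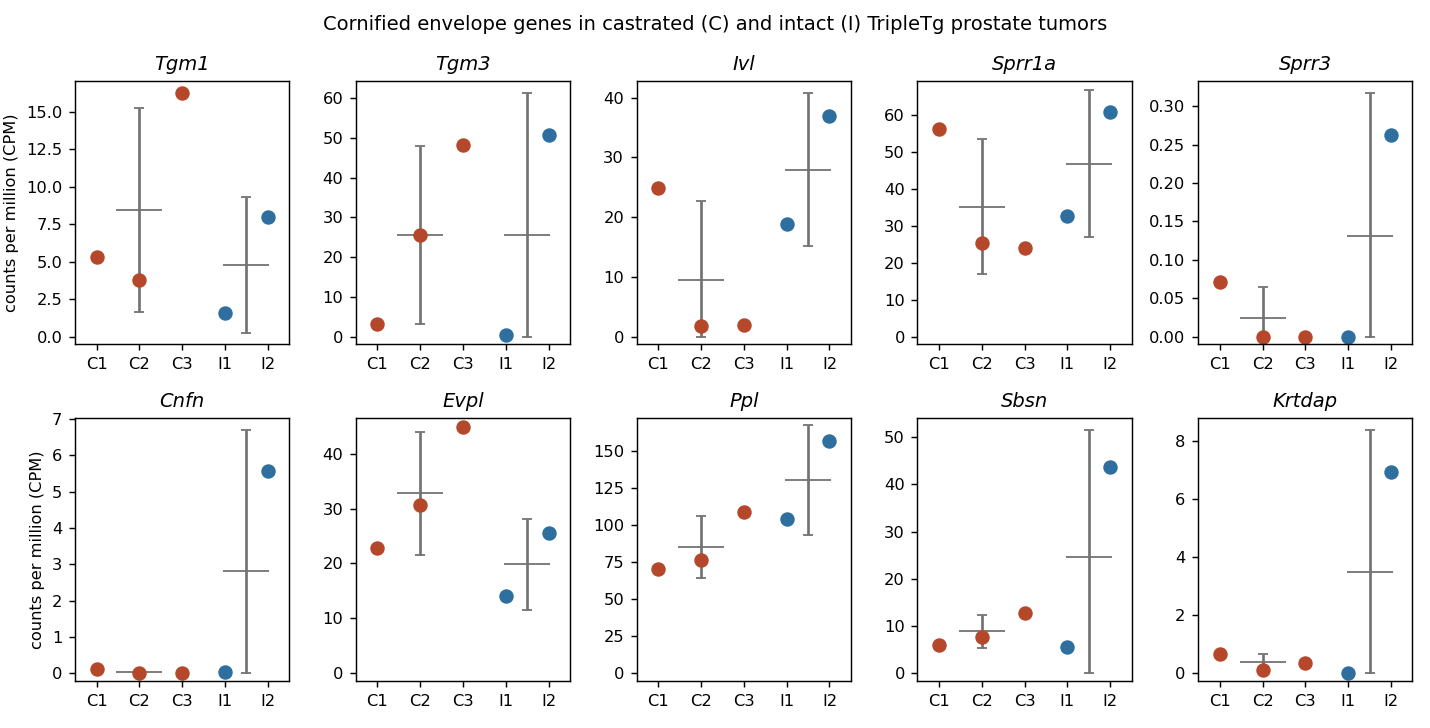
CPM of each cornified envelope gene in castrated (C1 to C3, red) and intact (I1 and I2, blue) samples, with a grey bar for the group mean ± SD cut off at 0 and a separate linear axis for each gene. The groups overlap in all 10 panels, and intact replicate 2 is the highest sample in 8 of them.

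In 8 of the 10 members the highest level was that of intact replicate 2, and in 2, Tgm1 and Evpl, that of castrated replicate 3. Over all genes with a read, 24.4% had their highest CPM in intact replicate 2. All 10 members were higher in intact replicate 2 than in intact replicate 1, as were 44.2% of all genes with a read. This view of single samples was chosen after the values were seen. Per gene length, in TPM, which scales counts by the length of the gene and the depth of the library, the mean level over the 5 samples ran from 112 for Sprr1a through 36.9 for Ppl, 19.1 for Ivl, 14.1 for Sbsn, 13.6 for Tgm3, 9.85 for Evpl, 7.15 for Krtdap, 5.24 for Tgm1 and 3.15 for Cnfn to 0.112 for Sprr3. The TPM of Sprr1a, 70.1 or more in each sample, lay above that of Ppl, which was at most 49.3. All other neighbors in this order overlapped between samples. The mean of Krtdap rests on intact replicate 2, with 30.0 TPM against at most 3.41 elsewhere, and Tgm1 was above Krtdap in the other 4 samples.

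**Figure D2:**
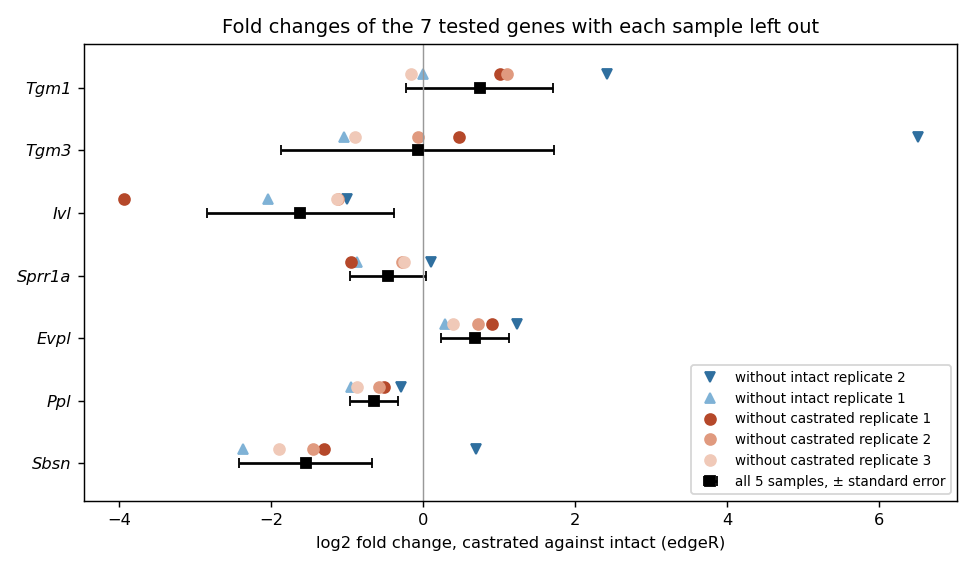
Log2 fold change of castrated against intact samples from edgeR for the 7 tested genes, with all samples (black squares, ± standard error) and with each sample left out in turn (colored symbols, no error drawn). Leaving out intact replicate 2 moved Tgm3 to 6.51 and Sbsn to 0.70, and leaving out castrated replicate 1 moved Ivl to -3.94.

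Leaving out intact replicate 2 reversed the sign for Tgm3, Sbsn and Sprr1a, leaving out castrated replicate 1 reversed that of Tgm3 (0.47), and leaving out castrated replicate 3 reversed that of Tgm1 (-0.16), which was close to 0 without intact replicate 1. Evpl stayed above 0 and Ivl and Ppl below 0 in every such fit, but none of the 7 was called in any of them.

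Most other genes of late squamous differentiation were likewise highest in intact replicate 2. Of 31 other cornified envelope and late keratinocyte genes analysed, 20 entered the test, of which 0 were called, while 1 was higher and 5 were lower at the unadjusted p, beside 7.66% higher and 3.26% lower over all genes tested. Their median log2 fold change was -1.73, and 1.30 without intact replicate 2 but -2.65 without intact replicate 1. Of the small proline-rich and late cornified envelope genes outside the members, 5 of 34 entered the test, with 0 called. At the unadjusted p 0 were higher and 1 was lower, Sprr2h, which exceeded 1 CPM in the intact samples only. The median log2 fold change of the 5 tested genes was -2.12, or -0.86 without intact replicate 2 and -6.37 without castrated replicate 1. With no filter, over 31 genes, it was -4.47. Over both lists, 52 of 62 genes with a read were highest in intact replicate 2. Rptn, which encodes repetin of the envelope, was at 2.18, 0.158 and 0.195 CPM in castrated and at 0.603 and 135 CPM in intact samples. Spink5, an inhibitor of epidermal proteases, was at 1.14, 0.106 and 0.39 CPM in castrated and at 0.093 and 40.2 CPM in intact samples. In both genes intact replicate 1 lay with the castrated samples, and the sign of the log2 fold change reversed without intact replicate 2, to 0.51 for Rptn and 2.52 for Spink5. DESeq2 called both genes, and the likelihood ratio test called neither. The gene that was higher, Scel (sciellin, named after its values were seen), was at 12.0, 12.7 and 24.5 CPM in castrated and at 5.80 and 8.18 CPM in intact samples, with a log2 fold change of 1.19. Of the 5 that were lower, Tchh (trichohyalin of the hair follicle) was also named after its values were seen. It was at 116 CPM in intact replicate 2 and between 4.64 and 11.9 CPM in the other samples. The rest were Rptn, Spink5, Lor and Crct1, of which Crct1 exceeded 1 CPM in the intact samples only.

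The suprabasal epidermal keratins showed the same split between the intact samples. Krt1 was at 1.32, 0.317 and 0.586 CPM in castrated and at 0.139 and 13.5 CPM in intact samples. Krt10, the partner of Krt1, was at 2.39, 2.37 and 2.73 CPM in castrated and at 2.37 and 11.2 CPM in intact samples. Their log2 fold changes were -3.26 (edgeR adjusted p = 0.382) and -1.51 (edgeR adjusted p = 0.380), and 2.39 and 0.082 without intact replicate 2. Sprr2a3 was at 82.8, 7.81 and 16.6 CPM in castrated and at 11.9 and 305 CPM in intact samples. Sprr2a1, Sprr2a2 and Sprr2a3 are near-identical copies, so the division of reads among them is uncertain.

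Of the 25 late genes tested outside the members, 3 (Lor, Crct1 and Sprr2h) were lower in each castrated sample than in both intact samples. In the other direction 1 (Scel) was higher, beside 15.3% lower and 17.8% higher over all genes tested. Crct1 and Sprr2h exceeded 1 CPM in both intact samples and in no castrated sample. Passing the filter therefore already fixed that their groups did not overlap, so their separation has no weight beside these shares. Counting genes too low for the test, 10 of the 62 with a read were lower and 3 higher without overlap. The share over all genes with a read was not counted, so these numbers have no reference. Some rest on single reads, such as Sprr4, with 0 counts in castrated and 1 and 3 counts in intact samples. Casp14, on the higher side, had 3, 1 and 1 counts in castrated and 0 and 1 counts in intact samples. Lor, which encodes loricrin, the main protein of the epidermal envelope, was at 2.03, 1.95 and 1.95 CPM in castrated and at 6.17 and 4.51 CPM in intact samples. The log2 change in castrated samples was -1.44 (SE 0.38, edgeR adjusted p = 0.290), and -1.63 without intact replicate 2. Crct1, a gene of the epidermal differentiation complex, was at 0.321, 0.106 and 0.049 CPM in castrated and at 1.48 and 11.9 CPM in intact samples, with a log2 fold change of -5.35 (SE 1.17, edgeR adjusted p = 0.289), and -3.10 without intact replicate 2. Sprr2h had 7, 0 and 1 counts in castrated and 26 and 87 counts in intact samples, with a log2 fold change of -4.49 (edgeR adjusted p = 0.289), and -3.38 without intact replicate 2. DESeq2 called these 3 genes and the likelihood ratio test called Crct1 and Sprr2h, whereas the quasi-likelihood test called none of them. Pkp1, a desmosomal plakophilin that had the highest mean CPM of the late keratinocyte list, had a log2 fold change of 0.04, or 0.75 without intact replicate 2, and overlapping groups. Flg, which encodes filaggrin, was not analysed here.

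**Figure D3:**
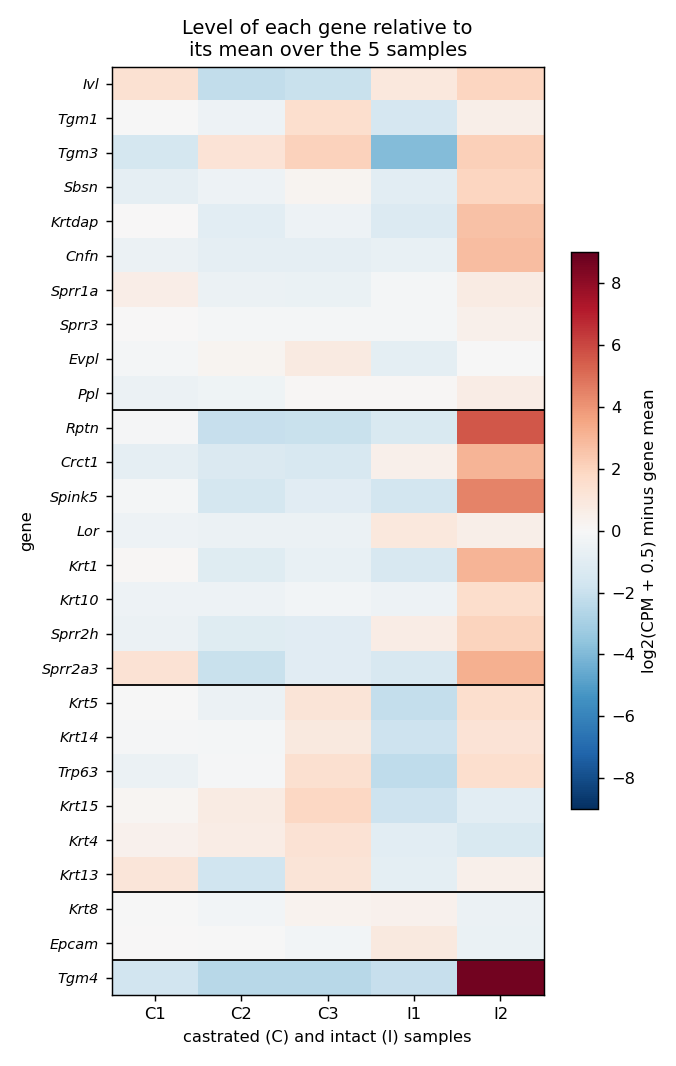
Level of each gene as log2(CPM + 0.5) minus its mean over the 5 samples, for the 10 members (top block), other late squamous genes, basal and stratified keratins with Trp63, general epithelial genes and the prostate secretory gene Tgm4 (bottom block). Intact replicate 2 (I2) is the highest sample for the members except Tgm1 and Evpl, for the other late squamous genes shown except Lor, and for Tgm4, whereas Krt15 and Krt4 are raised in castrated samples (C1 to C3).

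Trp63, Krt5 and Krt14, which mark the basal layer, had overlapping groups. Trp63 was at 22.1, 30.4 and 88.5 CPM in castrated and at 6.31 and 95.1 CPM in intact samples. Krt5 was at 131, 89.0 and 291 CPM in castrated and at 29.9 and 381 CPM in intact samples, and Krt14 ranked the samples in the same order, with 14.8 CPM in intact replicate 1 and 131 CPM in intact replicate 2. Intact replicate 1 was the lowest and intact replicate 2 the highest sample for all 3 genes. The log2 fold changes were -0.19 for Trp63, -0.35 for Krt5 and -0.21 for Krt14, and 2.90, 2.51 and 2.17 without intact replicate 2, where 0 genes were called.

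Among 10 keratins of basal and stratified epithelium, 9 entered the test, with 0 called, 2 higher and 0 lower at the unadjusted p, beside 7.66% higher and 3.26% lower over all genes tested. Krt15, a keratin of basal and progenitor cells, was at 118, 168 and 374 CPM in castrated and at 28.0 and 53.7 CPM in intact samples. Krt4, a keratin of mucosal, non-cornifying stratified epithelium, was at 75.2, 92.1 and 147 CPM in castrated and at 29.8 and 22.1 CPM in intact samples. The castrated and intact samples did not overlap for either gene, as for 17.8% of all genes tested in this direction, and the log2 fold changes were 2.39 (SE 0.65, edgeR adjusted p = 0.290) for Krt15 and 2.0 (SE 0.36, edgeR adjusted p = 0.289) for Krt4. Without intact replicate 2 they were 2.98 and 1.82. DESeq2 and the likelihood ratio test called both. Krt16, which was too low for the test and is named after its values were seen, lay the other way, at 0.464, 0.369 and 0.293 CPM in castrated and at 0.835 and 24.2 CPM in intact samples. Krt13, the usual partner of Krt4, was at 6.46, 0.422 and 6.83 CPM in castrated and at 1.25 and 3.89 CPM in intact samples, with overlapping groups. Krt7, the keratin of this list with the highest mean CPM, was at 289, 240.1 and 203 CPM in castrated and at 455 and 110 CPM in intact samples.

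Of 15 transcription factors of squamous and stratified epithelium, 14 entered the test, with 0 called, 0 higher and 1 lower at the unadjusted p with more than a 1 log2 unit change, beside 7.66% higher and 3.26% lower over all genes tested. Their median log2 fold change was -0.12, and it turned to 0.20 without intact replicate 2, 0.12 without castrated replicate 1 and 0.029 without castrated replicate 2. The gene past both thresholds, Ovol1, a repressor that acts as keratinocytes leave the basal state, was at 4.53, 6.02 and 3.95 CPM in castrated and at 7.0 and 20.6 CPM in intact samples. The log2 change in castrated samples was -1.57 (edgeR adjusted p = 0.316), and -0.53 without intact replicate 2. Prdm1, named after its values were seen, also had lower levels in each castrated sample (15.2, 22.3 and 17.7 CPM) than in both intact samples (32.4 and 34.2 CPM), with a log2 fold change of -0.88 (edgeR adjusted p = 0.300). Ehf, the factor with the highest mean CPM, was at 215, 264 and 331 CPM in castrated and at 248 and 613 CPM in intact samples, again with overlapping groups.

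Marker lists of other tissues moved with some samples, and their part in the results was not tested. The 9 markers of prostate secretory cells and seminal vesicle analysed summed to 1.18, 0.211 and 0.488 CPM in castrated and to 0.325 and 1280 CPM in intact samples. Tgm4 was the most abundant, 8 of the 9 were highest in intact replicate 2, Msmb had 0 counts in each sample, and 0 of them entered the test. Of 6 urothelial markers, 5 entered the test and 1, Upk1a, was higher at the unadjusted p, beside 7.66% of all genes tested. Upk1a was at 9.49, 27.4 and 43.2 CPM in castrated and at 2.09 and 5.69 CPM in intact samples. The list summed to 59.1, 80.9 and 106 CPM in castrated and to 50.1 and 137 CPM in intact samples, with Upk1b as its most abundant gene at 119.5 CPM in intact replicate 2. Upk2, a defining gene of the urothelial surface, was at 6.30 CPM in intact replicate 2 and at most 0.488 CPM elsewhere. Of the 6 genes, Upk1b and Upk2 were highest in intact replicate 2, whereas Upk3a and Krt20 were lowest there, at 2.14 and 1.53 CPM.

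The general epithelial list, of which 11 of 11 genes entered the test, had 0 genes past the unadjusted p in either direction and a median log2 fold change of -0.26, which was -0.46 without intact replicate 2 and -0.0043 without intact replicate 1. Its sum was 4764, 4268 and 4998 CPM in castrated and 7053 and 4271 CPM in intact samples. Krt8 was the gene with the highest mean CPM, and intact replicate 1 the sample with the highest sum. In intact replicate 1, 6 of the 10 members were at their lowest level or at 0 counts, though Sprr3 also had 0 counts in castrated replicates 2 and 3. The share over all genes was not counted, and a relation of the members to the epithelial sum was not tested. At the unadjusted p, 7 of 11 adipocyte, 8 of 10 macrophage and 7 of 8 smooth muscle genes were higher in castrated samples, beside 7.66% of all genes tested, and 0 were called. Adipocyte genes summed to 140.4, 837 and 790.0 CPM in castrated and to 142 and 148 CPM in intact samples, with Fabp4 as the most abundant. The defining adipocyte gene Adipoq was at 0.535, 67.6 and 68.4 CPM in castrated samples, with 0 and 2 counts in intact samples. Of the tested members, Ivl and Sprr1a were lower in castrated replicates 2 and 3, where the adipocyte genes were high, than in castrated replicate 1. Tgm3, Sbsn, Evpl and Ppl were higher in both than in castrated replicate 1, and Tgm1 only in castrated replicate 3. A relation to the adipocyte genes was not tested. Cfd and Pck1 had 0 counts in both intact samples, and Cfd was at 1.71, 147 and 169 CPM in castrated samples.

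Macrophage genes summed to 2733, 7549 and 3155 CPM in castrated and to 1245 and 1621 CPM in intact samples, led in mean CPM by Lyz2. The smooth muscle list summed to 477, 783 and 816 CPM in castrated and to 285 and 183 CPM in intact samples, led in mean CPM by Acta2, at 165, 298 and 221 CPM in castrated and at 79.8 and 54.2 CPM in intact samples. Neutrophil genes, led in mean CPM by S100a9, summed to 181, 125 and 76.4 CPM in castrated and to 93.2 and 106.5 CPM in intact samples, with 0 of 7 tested past the unadjusted p. None of the squamous members followed the macrophage or smooth muscle genes in separating castrated from intact samples.

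**Figure D4:**
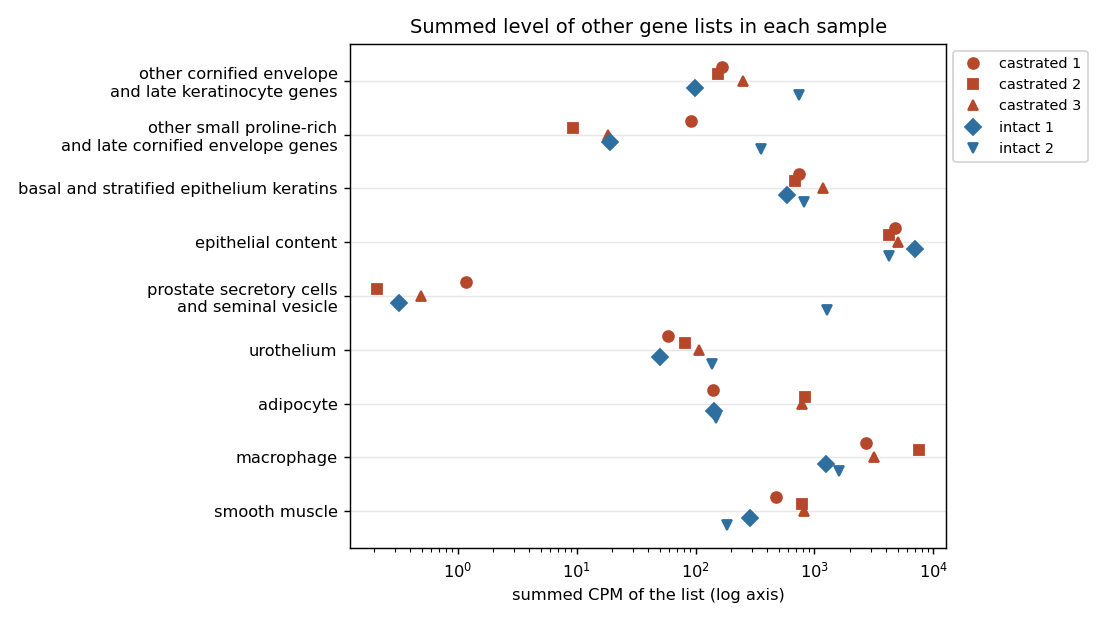
Summed CPM of the other gene lists (log axis) in the castrated (red) and intact (blue) samples. Intact replicate 2 has the highest sum for late squamous and prostate secretory genes, and for urothelial genes, most of that sum being Upk1b, whereas macrophage and smooth muscle sums are higher in castrated than in intact samples.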

How the data were processed

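From libraries depleted of ribosomal RNA, the authors obtained paired-end reads that went through Trimmomatic 0.39, STAR 2.7.9 (alignment to mm10) and HTSeq 2.0.2 (counting per gene). The deposited table holds unnormalized counts beside a gene length in kilobases that was used only for TPM. Strand use is not given in the sources used here. Library pairs within a group differed far beyond counting noise (chi-square per gene 132.7 or more).

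Counts were tested with R 4.3.3, edgeR 4.0.16 (TMM, quasi-likelihood F-test) and DESeq2 1.42.0, with p adjusted over all 14612 genes. CPM per sample uses total counts. SE is the size of the log2 fold change over the root of its F value. The common dispersion was 0.238, so differences between samples, more than counting error, set the precision, except for genes with very few counts. The methods name TPM as input, and counts were used instead because the test models counts.

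The members, gene lists and tests were chosen with earlier results of these data known. Named genes are the members, up to 3 genes of each list past the unadjusted p with the largest fold change, its gene with the highest mean CPM and 12 defining markers. The lists cover late squamous genes, keratins, transcription factors, epithelium, urothelium, prostate secretory cells, adipocytes, macrophages, neutrophils and smooth muscle, and 1 gene fixed for the prostate secretory list is not reported here. Coordinates count from 1. Single-cell and qRT-PCR data were not analysed here.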

Additional observations from a re-analysis of the deposited data

How the results depend on the processing

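Members were not called under any of the alternatives run (other scalings, filters and tests, the older quasi-likelihood fit of edgeR, which was chosen after seeing the data, the replicate block, and each sample left out). Depth limits Cnfn, Sprr3 and Krtdap, which rest on few reads in most samples. At the unadjusted p with the fold change threshold, 1 member (Cnfn) passed with no filter, beside 2153 of 19791 genes. Without castrated replicate 1, 1 member (Ivl) passed, beside 1948 of 14612 genes. Fits that left out an intact sample keep a lone intact sample, so members past the unadjusted p in them are not listed here. In those fits the log2 fold change was -2.37 for Sbsn without intact replicate 1 and 6.51 for Tgm3 without intact replicate 2. Where an intact sample is left out, the lone intact sample is assumed to vary like the castrated ones. The cause of changes was not tested.

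Over all genes, DESeq2 called 989 and the likelihood ratio test 369 genes, of which 26 and 15 were in the other gene lists, against 0 in each case with the quasi-likelihood test. Leaving out each sample gave between 0 and 1 called genes, the 1 being Coch without intact replicate 1, named after its values were seen. At the unadjusted p, 1596 genes became 975 with the replicate block, 922 without castrated replicate 2, 898 without castrated replicate 3 and 2588 without intact replicate 1. In the other lists, 33 genes became 56 with no filter, 22 without castrated replicate 2, 23 without intact replicate 2 and 23 with the replicate block. The median log2 fold change of the members was -1.11 with no filter, over all 10, and ran from -0.95 to 0.70 across the fits that left out a sample.

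Same-numbered samples are not stated to be paired. Over genes, the samples numbered 1 deviated from their group means with a correlation of 0.149, and those numbered 2 with -0.045. Under the replicate block the log2 fold change reversed to 0.97 for Tgm3, -0.36 for Pkp1, 0.21 for Krt7, 0.15 for Krt14, -0.26 for Krt13, 0.045 for Trp63 and -0.084 for Krt8. With library size only, Tgm3 reversed to 0.013. With a sample left out, log2 fold changes crossed 0 for Tgm1 (-0.16 to 2.41), Tgm3 (-1.05 to 6.51), Sbsn (-2.37 to 0.70), Sprr1a (-0.95 to 0.098), Rptn (-8.59 to 0.51), Spink5 (-6.36 to 2.52), Pkp1 (-0.49 to 0.75), Krt1 (-4.23 to 2.39), Krt10 (-2.24 to 0.082), Sprr2a3 (-3.75 to 1.57), Krt7 (-0.90 to 1.07), Krt5 (-1.24 to 2.51), Krt14 (-1.05 to 2.17), Ehf (-1.25 to 0.13), Trp63 (-1.09 to 2.90), Krt8 (-0.35 to 0.51), Epcam (-0.96 to 0.47), Upk1b (-1.95 to 2.14) and S100a9 (-0.056 to 1.07).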
